A study of Mus musculus with 6 samples.

Results

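A set of 10 genes that mark tissue bordering the medial ganglionic eminence (MGE) was followed in RNA-seq of that region from mouse embryos at embryonic day 12.5. The MGE is the ventral forebrain territory that generates many cortical interneurons. The genes were chosen by symbol, as markers of the pallium (the future cortex) and of the hypothalamus, from the 34745 genes of the count table: Tbr1, Eomes, Neurog2, Neurod1, Neurod2, Neurod6, Slc17a6, Emx1, Lhx9 and Otp. All 10 were listed, each under 1 identifier. Libraries came from 3 Sp9 null samples (genotype Sp9-/-) and from 3 wild type littermate samples, all of a background combining the CD1, 129S6 and C57BL/6J strains. The labels give neither the design of the null allele nor whether a sample is 1 embryo or a pool, so the p-values below reflect variation among these libraries only, part of which may be technical. Each genotype has replicates numbered 1, 2 and 3 (A, B and C in the table's columns), and the labels do not say what a shared number stands for.

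In the pallium, radial progenitors that express Emx1 and Neurog2 give rise to intermediate progenitors marked by Eomes (Tbr2) and then to glutamatergic neurons that turn on Neurod1, Neurod2, Neurod6 and Tbr1. The MGE lies ventral to it and makes GABAergic and cholinergic neurons, so these genes are known as signs of pallial cells rather than of MGE cells. Tbr1, Lhx9, Slc17a6 and Otp are also used outside the cortex. Lhx9 is known from the thalamic eminence, the diencephalon and the amygdala, Otp from the hypothalamus and part of the amygdala, and Slc17a6, which encodes the vesicular glutamate transporter VGLUT2, from glutamatergic neurons of the diencephalon and of the early pallium.

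The libraries held 6826447 to 10979280 counts in the null group and 9536050 to 10914147 in the wild type group. Sp9, the zinc finger transcription factor that was disrupted, had 89, 116 and 118 counts in null replicates 1, 2 and 3, against 1939, 2700 and 1870 in the wild type replicates, so its level matched the labels in all 6 libraries. Nkx2-1, a homeobox gene of the MGE, lay at 895 to 945 CPM (counts per 1000000 counts of the library) in the null and at 800.0 to 927 CPM in the wild type libraries. A list of 14 MGE and subpallial genes summed to 4910, 4980 and 4920 CPM in null replicates 1, 2 and 3 and to 4370, 4400 and 4210 CPM in the wild type replicates. Dlx1, the most abundant, averaged 1470 CPM in the null and 923 CPM in the wild type libraries. In 3 of the 14 both replicate 2 libraries were lowest, and in 3 they were highest. Lhx8, 1 of those lowest, had 184, 75.9 and 226 CPM in the null and 205, 136 and 211 CPM in the wild type replicates. The dissected tissue thus carried these genes in every library, which does not show how much neighbouring tissue it held. Mitochondrial genes took 2.32%, 3.43% and 3.41% of the counts in null replicates 1, 2 and 3, and 2.20% to 2.28% in the wild type libraries.

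Promoter sequence is shown for Slc17a6 and Otp, because both genes were nearly absent from replicate 2 and their tabulated promoter window begins outside annotated exons; that of Tbr1 lies within a Tbr1 exon. The sequences are those of RefSeq on GRCm38.p6, on the plus strand and ending before the nearest annotated exon: chr7:51621580-51621829 upstream of Slc17a6 and chr13:94875386-94875601 upstream of Otp. Capitals mark GGCGGG, a form of the GC box bound by Sp family zinc fingers, and the neurogenic E-box CAGATG. The E-box reads CATCTG where it lies on the other strand. Both strands were searched for each. Other forms of the GC box, such as GGGCGG, were not searched.

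Slc17a6: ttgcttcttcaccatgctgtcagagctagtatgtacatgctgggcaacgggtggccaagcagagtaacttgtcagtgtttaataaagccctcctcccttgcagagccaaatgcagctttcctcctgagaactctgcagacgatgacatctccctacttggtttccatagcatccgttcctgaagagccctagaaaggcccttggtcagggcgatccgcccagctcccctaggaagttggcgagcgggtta
Otp: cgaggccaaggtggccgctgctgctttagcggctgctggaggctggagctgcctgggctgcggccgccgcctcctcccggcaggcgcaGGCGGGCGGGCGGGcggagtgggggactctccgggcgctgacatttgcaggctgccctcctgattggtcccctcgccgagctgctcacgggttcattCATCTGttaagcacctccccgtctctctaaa

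The Otp stretch held 3 overlapping copies of GGCGGG and 1 E-box in 216 bases with 69% G and C. The Slc17a6 stretch held neither GGCGGG nor the E-box in 250 bases with 53.2% G and C. It does hold the form GGGCGG, which reads CCGCCC on the printed strand. Of 32851 RefSeq windows of 250 bases upstream of a gene start, 32.5% held GGCGGG and 14.4% the E-box on either strand. All 10 markers matched the RefSeq table, with 11 windows, since Slc17a6 has 2. GGCGGG occurred in the windows of Neurog2, Neurod1, Neurod2, Emx1 and Otp, and not in those of Tbr1, Eomes, Neurod6, Slc17a6 and Lhx9. The E-box occurred in those of Neurod2 and Otp and in the second Slc17a6 window. Such a match describes letters only.

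Expression of the 10 markers was uneven. In replicates 1 and 3 of both genotypes Tbr1 led, followed by Lhx9 and Slc17a6 per count, while the proneural and cortical genes Neurog2, Neurod2, Neurod6 and Emx1 stayed near the limit of detection. In replicate 2 of both genotypes Tbr1, Slc17a6 and Otp were nearly absent. The 10 genes summed to 46.4, 3.73 and 79.6 CPM in null replicates 1, 2 and 3, and to 32.6, 6.41 and 42.8 CPM in the wild type replicates. Null and wild type ranges overlapped for all 10 genes, and the replicate 2 libraries lay below the other 4 for 6 of them. Of the 14929 genes that passed the filter on low counts, 13% had null and wild type ranges that did not overlap. In 21.9% both replicate 2 libraries lay below the other 4. Emx1, 1 of the 6, had 6 counts or fewer in every library.

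**Figure D1:**
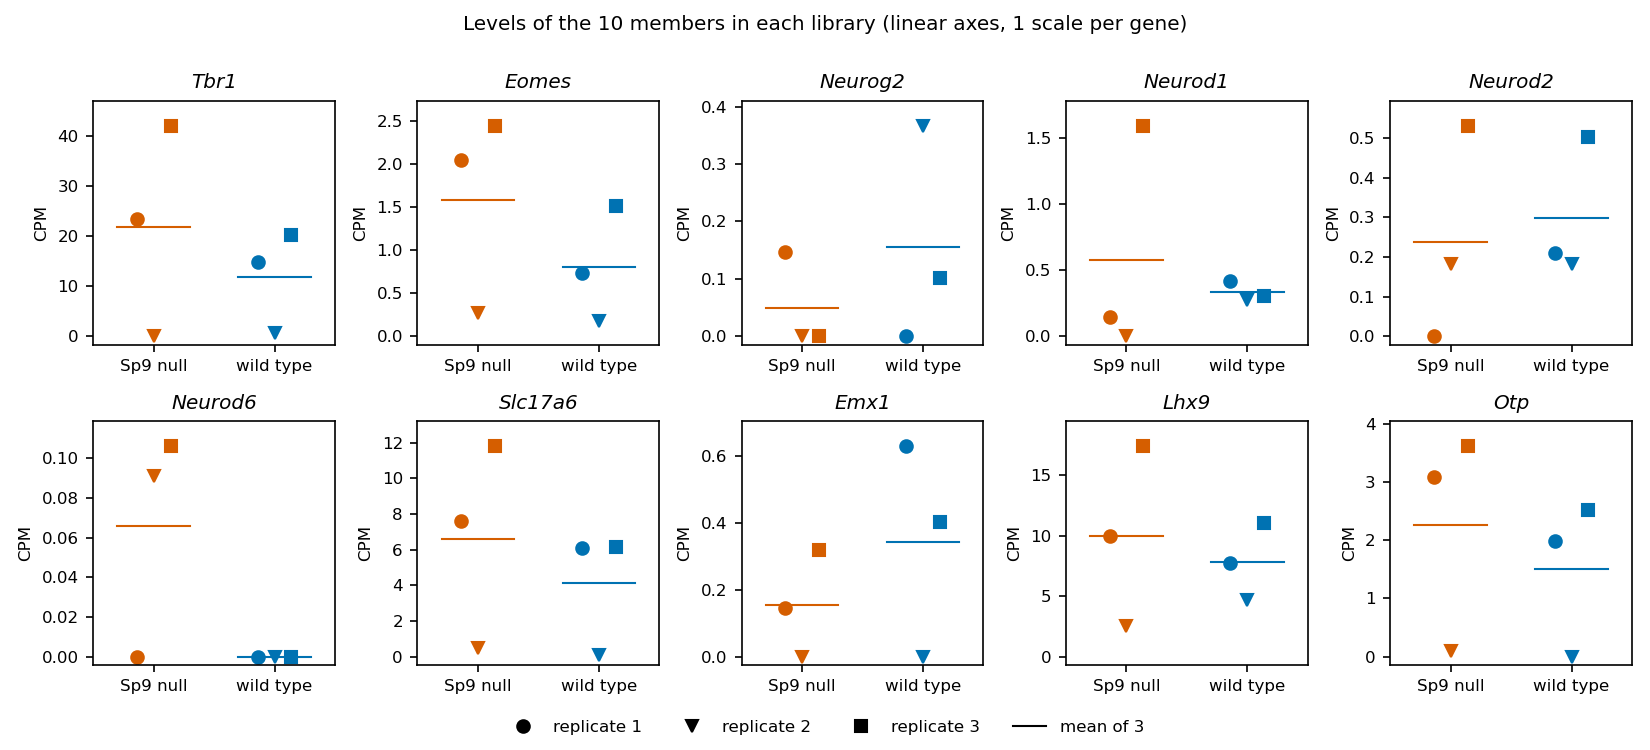
CPM of each marker (vertical axis, linear, with its own scale per gene) in the Sp9 null and wild type libraries; symbols give the replicate number and lines the mean of 3. Tbr1, Eomes, Slc17a6, Emx1, Lhx9 and Otp are lowest in the replicate 2 library of each genotype, and the null and wild type ranges overlap for every gene.

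Among the pallial progenitor genes, Neurog2 (ENSMUSG00000027967, chromosome 3, 127633135 to 127635631), a proneural factor of cortical progenitors, had 1, 0 and 0 counts in null replicates 1, 2 and 3 and 0, 4 and 1 in the wild type replicates. Emx1 (ENSMUSG00000033726, chromosome 6, 85187438 to 85204462), a homeobox gene that is largely confined to the pallium in the forebrain, had 1, 0 and 3 counts in the null and 6, 0 and 4 in the wild type replicates. Eomes (ENSMUSG00000032446, chromosome 9, 118478212 to 118486132), a T-box factor of intermediate progenitors, had 14, 3 and 23 counts in the null and 7, 2 and 15 in the wild type replicates. Only Eomes among these 3 was above 3 counts in all 4 libraries of replicates 1 and 3. A floor of 3 counts corresponds to 0.273 to 0.439 CPM in the null and 0.275 to 0.315 CPM in the wild type libraries, and covers counting error only.

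Of the neuronal differentiation factors of the Neurod family, Neurod6 (ENSMUSG00000037984, chromosome 6, 55677822 to 55681263) had 0, 1 and 1 counts in null replicates 1, 2 and 3 and 0 in the wild type libraries. Neurod2 (ENSMUSG00000038255, chromosome 11, 98325415 to 98329648) had 0, 2 and 5 counts in the null and 2, 2 and 5 in the wild type replicates. Neurod1 (ENSMUSG00000034701, chromosome 2, 79452521 to 79456751) had 1, 0 and 15 counts in the null and 4, 3 and 3 in the wild type replicates. Null replicate 3 thus held most of the Neurod1 counts of its group, and its level was 5.26 times that of wild type replicate 3 (95% exact counting interval 1.49 to 28.3). Neurod1 overlaps Cerkl and the predicted gene Gm26755 in the table's coordinates, and since strand is not stated, their reads may not be fully separated.

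Tbr1 (ENSMUSG00000035033, chromosome 2, 61802930 to 61814114), a T-box factor of early-born glutamatergic neurons, had 159, 1 and 395 counts in null replicates 1, 2 and 3, or 23.3, 0.0911 and 41.9 CPM. In the wild type replicates it had 141, 7 and 200 counts, or 14.8, 0.641 and 20.2 CPM. Both replicate 2 libraries were far below the rest, and null replicate 3 was the highest of the 6. Tbr1 made up 50.2%, 2.44% and 52.6% of the summed CPM of the 10 markers in null replicates 1, 2 and 3, and 45.3%, 10% and 47.2% in the wild type replicates. Set against this, Neurog2, Neurod2, Neurod6 and Emx1 together had 2, 3 and 9 counts in the null and 8, 6 and 10 counts in the wild type replicates. As CPM these sums were 0.293, 0.273 and 0.954 in the null and 0.839, 0.550 and 1.01 in the wild type replicates. The summed level of the 4 genes thus did not fall in replicate 2 as far as that of Tbr1. Counts this low cannot show whether any 1 of the 4 followed Tbr1 from replicate to replicate. Since these genes, which define cortical tissue, were near the limit of detection, the set is described here by its leading genes, Tbr1, Lhx9 and Slc17a6.

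Slc17a6 (ENSMUSG00000030500, chromosome 7, 51621830 to 51671125) had 52, 5 and 111 counts in null replicates 1, 2 and 3, or 7.62, 0.455 and 11.8 CPM. The wild type replicates had 58, 1 and 61 counts, or 6.08, 0.0916 and 6.15 CPM. Slc17a6, like Tbr1, was lowest in replicate 2 of both genotypes. Slc17a7, the vesicular glutamate transporter gene of mature cortical neurons, had 4, 7 and 8 counts in null replicates 1, 2 and 3. It had 3, 4 and 3 counts in the wild type replicates. These were 0.586 to 0.848 CPM in the null and 0.302 to 0.366 CPM in the wild type libraries. In the edgeR fit without the low-count filter, Slc17a7 in replicate 2 differed by 0.18 (SE 0.97) from replicate 1. From replicate 3 it differed by -0.14 (SE 0.90). Slc17a7 thus showed no fall of the size seen for Slc17a6, and its counts are too low to show smaller differences.

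Lhx9 (ENSMUSG00000019230, chromosome 1, 138825186 to 138848577), a LIM homeobox gene, had 68, 28 and 164 counts in null replicates 1, 2 and 3, or 9.96, 2.55 and 17.4 CPM, against 74, 51 and 110 counts, or 7.76, 4.67 and 11.1 CPM, in the wild type replicates. It was the only marker with 10 or more counts in the replicate 2 libraries. There it took 68.3% of the markers' summed CPM in the null and 72.9% in the wild type library, against 21.5% and 21.8% in null replicates 1 and 3 and 23.8% and 25.9% in the wild type ones. Otp (ENSMUSG00000021685, chromosome 13, 94875602 to 94885130), a homeobox gene of hypothalamic neuroendocrine neurons, had 21, 1 and 34 counts in the null and 19, 0 and 25 in the wild type replicates.

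Levels were compared between genes per length, on the deposited FPKM scale (fragments per kilobase of transcript, scaled to 1000000 counts of the library). Among the 5 markers that passed the filter on low counts, the order in replicate 3 was Tbr1, Slc17a6, Lhx9, Otp and Eomes in both genotypes, at 6.10, 2.73, 1.45, 1.08 and 0.341 FPKM in the null and 2.94, 1.42, 0.924, 0.754 and 0.212 FPKM in the wild type library. Neurod1, below that filter, stood above Eomes in null replicate 3, at 0.583 FPKM. As group means Tbr1 stood at 3.17 ± 3.05 FPKM in the null and 1.73 ± 1.47 FPKM in the wild type libraries, and Slc17a6 at 1.53 ± 1.33 and 0.951 ± 0.805 FPKM in the same order (SD, n = 3 each). With such spread, neighbours in the order of group means did not differ beyond their SD in either genotype.

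Differences between replicate numbers were tested with genotype in the fit (edgeR quasi-likelihood test, two-sided, adjusted over 14929 genes). The low Tbr1 and Otp of replicate 2 were known when the genes were picked, so for those 2 genes the test describes a known pattern. Replicate number was associated with the level of 22.8% of all tested genes. All 5 markers that passed the filter on low counts were called, but Tbr1, Eomes, Slc17a6 and Otp entered the test through replicates 1 and 3 alone, so this count carries no weight of its own. In bulk tissue, fewer cells of a type and less RNA per cell cannot be told apart.

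Tbr1 was lower in replicate 2 than in replicate 1 by a log2 difference of -5.63 (SE 0.39, edgeR adjusted p = 4.73e-09), and than in replicate 3 by -6.31 (SE 0.36, edgeR adjusted p = 1.9e-10). The 2 differences share the replicate 2 libraries. Slc17a6 differed by -4.60 (SE 0.46) from replicate 1 and by -4.94 (SE 0.43) from replicate 3, Eomes by -2.46 (SE 0.72) and -3.04 (SE 0.65), and Lhx9 by -1.24 (SE 0.29) and -1.94 (SE 0.27). The edgeR adjusted p of these 6 differences ran from 2.39e-11 for Slc17a6 against replicate 3 to 0.0126 for Eomes against replicate 1. For comparison, 12% of all tested genes were called lower in replicate 2 than in replicate 1 and 14.4% lower than in replicate 3, and the medians over all tested genes were 0.0051 and 0.0076. Of the 5 calls for replicate number, that of Eomes (edgeR adjusted p = 0.0018) was lost without null replicate 2 (0.209) and by DESeq2 (0.0861). The other 4 calls remained with any 1 library left out and by DESeq2, although without null replicate 2 the difference of Lhx9 from replicate 1 was -0.63 and not called (edgeR adjusted p = 0.265). A fall of 4-fold or more, a log2 difference of -2 or below, was seen in 1.55% and 1.85% of all tested genes.

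For Otp the fitted differences rest on 1 count in the replicate 2 libraries. The null libraries gave ratios of 33.8 for replicate 1 over replicate 2 (95% exact counting interval 5.43 to 1400) and 39.6 for replicate 3 over replicate 2 (6.64 to 1610). In the wild type, Otp was at least 7.25-fold higher in replicate 1 and at least 9.17-fold higher in replicate 3 than a floor of 3 counts in replicate 2. Tbr1, with 1 count in null replicate 2, had a ratio of 256 for null replicate 1 over replicate 2 (45.2 to 10200), and the corresponding wild type ratio was 23.1 (10.9 to 58.4). The low value of replicate 2 was thus present in each genotype taken alone.

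**Figure D2:**
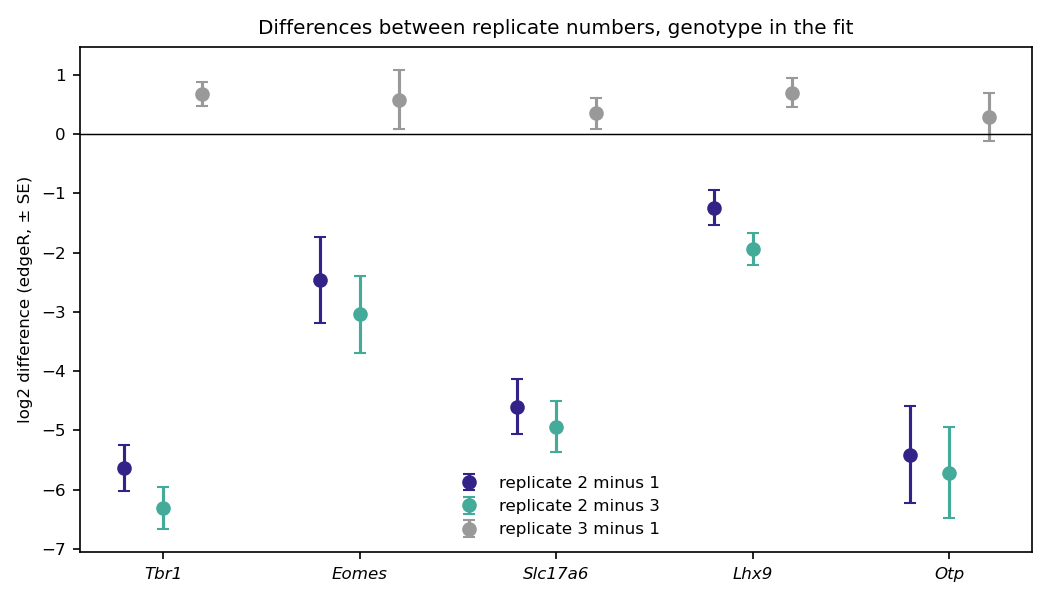
Log2 differences between replicate numbers (vertical axis) for the 5 markers that passed the filter, from the edgeR fit with genotype as a term; bars are approximate standard errors. The differences of replicate 2 from replicates 1 and 3 lie between -1.24 and -6.31, and those of replicate 3 minus 1 between 0.29 and 0.70.

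Replicates 3 and 1 were set against each other in the same fit. The 5 markers were between 0.29 and 0.70 (log2) higher in replicate 3 than in replicate 1, and 0 of them were called in that comparison (edgeR adjusted p 0.254 to 0.949), where 0.315% of all tested genes were. In the unfiltered fit Tbr1 alone was called, at 0.68 (adjusted p = 0.0084). Of the 5 markers below the filter, Emx1 was also lowest in both replicate 2 libraries, with 0 counts in each, and none of the 5 was called for replicate number when the filter was dropped (edgeR adjusted p 0.209 to 0.925; Neurod1 alone had an unadjusted p under 0.05).

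Loss of Sp9 was examined next. Without the replicate number in the fit, 22 of 14929 genes were called between genotypes, or 0.147%, and 0 of the 5 tested markers were (edgeR adjusted p 0.93 to 0.99); 0 had an unadjusted p under 0.05, and DESeq2 called 0. The log2 fold changes of null over wild type were 0.89 (SE 1.51) for Tbr1, 0.95 (SE 0.86) for Eomes, 0.70 (SE 1.31) for Slc17a6, 0.36 (SE 0.67) for Lhx9 and 0.57 (SE 1.27) for Otp. The standard errors exceeded the fold changes for all of these but Eomes. Without null replicate 3 the fold changes of Tbr1, Slc17a6, Lhx9 and Otp were -0.08, -0.10, -0.36 and -0.05, and that of Eomes was 0.41. As means, Tbr1 was at 21.8 ± 20.9 CPM in the null and 11.9 ± 10.1 CPM in the wild type libraries, and Lhx9 at 9.97 ± 7.42 and 7.84 ± 3.21 CPM in the same order (SD, n = 3 each).

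With the replicate number as a block, 597 genes were called, or 4% of those tested (2.22% higher and 1.78% lower in the null libraries), and Tbr1 was the only marker among them. Its log2 fold change of null over wild type was 0.81 (SE 0.19), with an edgeR adjusted p of 0.0238. Without the replicate 3 pair the call was lost (0.45, adjusted p = 0.669), and DESeq2 with the block gave 0.12 and no call. Tbr1 lies 11.5 Mb from Sp9 on chromosome 2, in animals of mixed strain background, and the part of sequence linked to the Sp9 locus was not tested. Slc17a6 was at 0.72 (SE 0.26, adjusted p = 0.112), Eomes at 0.96 (SE 0.47, 0.28), Otp at 0.61 (SE 0.40, 0.451) and Lhx9 at 0.23 (SE 0.22, 0.643), and none of these passed.

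Within each replicate number the genotypes could be set side by side as single libraries, with counting error only. The null to wild type ratio of Tbr1 was 1.58 in replicate 1 (95% exact counting interval 1.25 to 1.99) and 2.08 in replicate 3 (1.75 to 2.47), and 0.142 in replicate 2 (0.00315 to 1.11), where the counts were 1 and 7. Lhx9 gave 1.28 in replicate 1 (0.91 to 1.81), 0.546 in replicate 2 (0.331 to 0.882) and 1.57 in replicate 3 (1.22 to 2.01). Slc17a6 gave 1.25 (0.845 to 1.85) in replicate 1 and 1.91 (1.39 to 2.66) in replicate 3, Otp 1.54 (0.79 to 3.04) and 1.43 (0.829 to 2.50), and Eomes 2.79 (1.06 to 8.18) and 1.61 (0.806 to 3.32). In replicate 2, Slc17a6 gave 4.97 (0.556 to 235) and Eomes 1.49 (0.171 to 17.9). All 10 ratios of replicates 1 and 3 were above 1, at 1.25 to 2.79, but the intervals of Lhx9, Slc17a6 and Otp in replicate 1 and of Otp and Eomes in replicate 3 included 1. The labels do not give this matching, and the data did not tell numbers 1 and 3 apart. With those numbers exchanged, Lhx9 was lower in null replicate 1 (9.96 CPM) than in wild type replicate 3 (11.1 CPM). The other tested markers were higher in the null library under either matching. Among the replicate 2 ratios, only the interval of Lhx9 left out 1, on the low side.

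**Figure D3:**
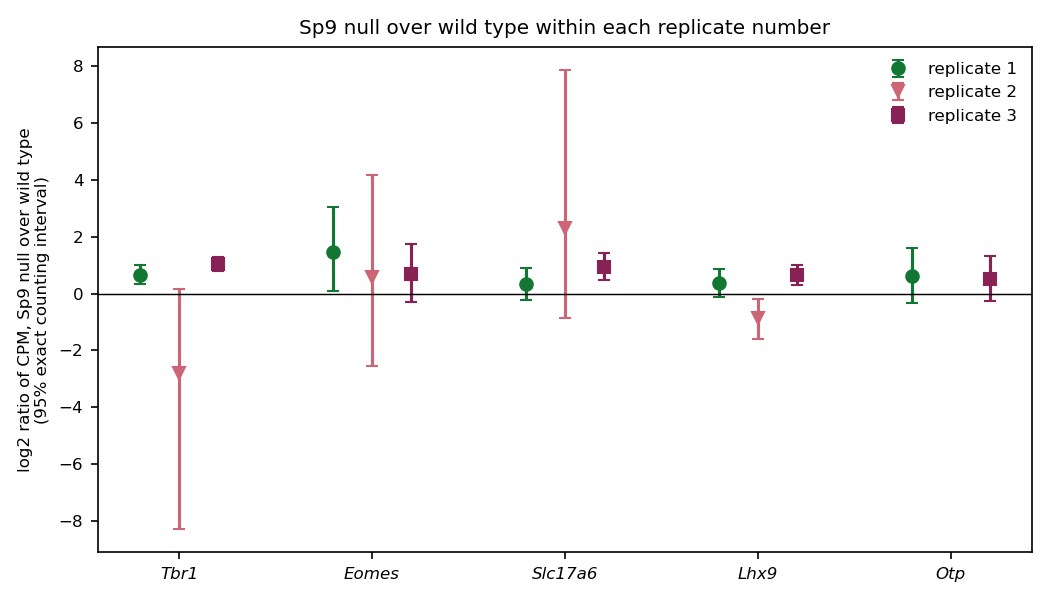
Log2 ratio of CPM, Sp9 null over wild type (vertical axis), within each replicate number for the 5 markers that passed the filter; bars are 95% exact counting intervals. Ratios of replicates 1 and 3 lie above 0 for all 5 markers, those of replicate 2 lie below 0 for Tbr1 and Lhx9, and Otp has no point for replicate 2, where wild type had 0 counts.

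Other genes of the neighbouring regions were read from 11 lists of regional and cell type markers. Most tested genes of the list for Cajal-Retzius and thalamic eminence cells, which arise at the borders of the pallium, were low in replicate 2. Of its 12 genes 10 were tested, 8 were called for replicate number, all with lower estimates in replicate 2 than in 1 and 3. In 9 of the 10, both replicate 2 libraries lay below the other 4, against 21.9% of all tested genes. Lhx5 and Barhl2 entered the test through replicates 1 and 3 alone, as several of the markers did, so these counts carry no weight of their own. The call of Ebf3 was lost without null replicate 2 (edgeR adjusted p = 0.063), and the other 7 remained with any 1 library left out. The medians of the list were -1.45 against replicate 1 and -1.94 against replicate 3. Reln, which encodes the secreted protein reelin of Cajal-Retzius cells, had 74.7, 8.20 and 106 CPM in null replicates 1, 2 and 3, against 56.9, 9.71 and 96.9 CPM in their wild type counterparts. Lhx5, a LIM homeobox gene of the same cells, was at 4.98, 0.0911 and 7.85 CPM in the null and 4.19, 0.0916 and 5.55 CPM in the wild type replicates. Trp73, the p53 family gene of Cajal-Retzius cells, had 15.4, 1.37 and 15.6 CPM in the null and 6.50, 0.733 and 12.3 CPM in the wild type replicates.

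The difference of replicate 2 from replicate 3 was -3.49 (SE 0.12) for Reln, -5.99 (SE 0.55) for Lhx5, -3.74 (SE 0.30) for Trp73 and -5.10 (SE 0.86) for Barhl2, a homeobox gene, with edgeR adjusted p from 1.37e-21 to 1.71e-05. Reln was also higher in replicate 3 than in replicate 1, by 0.65 (SE 0.10, edgeR adjusted p = 0.000348). With the block, Lhx1 and Trp73 of this list were higher in the null libraries, by 0.93 (SE 0.20) and 0.77 (SE 0.21), and without it edgeR called 0 genes of the list, with 0 at an unadjusted p under 0.05. Both blocked calls were lost without the replicate 3 pair (edgeR adjusted p 0.214 and 0.0585) and by DESeq2 with the block. That of Trp73 was also lost without the replicate 1 pair (0.346) or the replicate 2 pair (0.195).

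**Figure D4:**
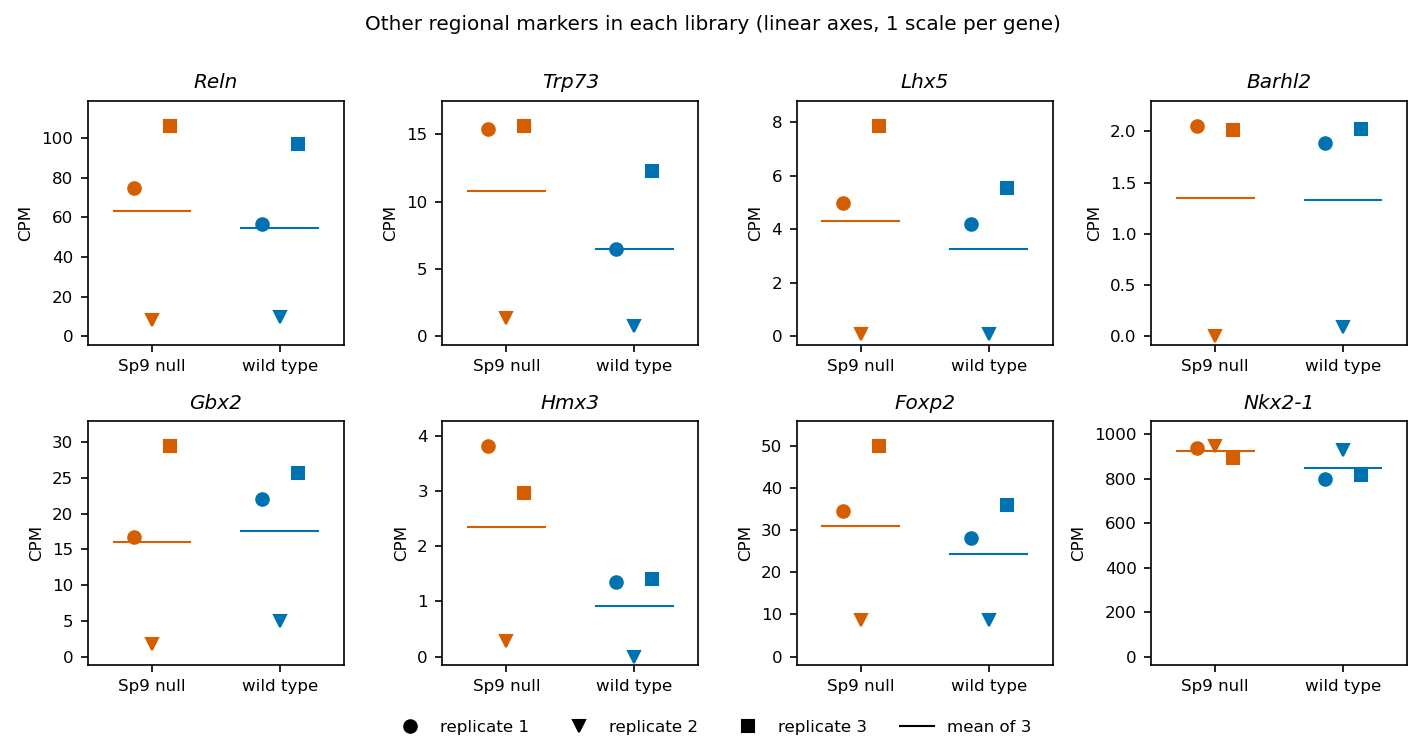
CPM (vertical axis, linear, with its own scale per gene) of 8 regional markers outside the set in Sp9 null and wild type libraries; symbols give the replicate number and lines the mean of 3. Reln, Trp73, Lhx5, Barhl2, Gbx2, Hmx3 and Foxp2 are lowest in replicate 2 of each genotype, whereas Nkx2-1 is not.

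The hypothalamic and preoptic list had 17 genes, of which 4 passed the filter. Nkx2-4, Rax, Foxb1 and Nr5a1, which define hypothalamic territories, had at most 1 count in any library. Hmx2, also below the filter, had 22, 0 and 19 counts in null replicates 1, 2 and 3 and 4, 0 and 7 in the wild type replicates. Sim1 had 8, 1 and 19 counts in the null and 9, 4 and 8 in the wild type replicates. Both were lowest in both replicate 2 libraries (unfiltered edgeR adjusted p 6.79e-06 and 0.0355 for replicate number). The other genes below the filter were not. Sim1 was called lower than in replicate 3 (-2.48, unfiltered edgeR adjusted p = 0.0131) but not than in replicate 1 (-2.11, 0.0791). Hmx3, a homeobox gene of the hypothalamus and preoptic area, had 3.81, 0.273 and 2.97 CPM in null replicates 1, 2 and 3, against 1.36, 0 and 1.41 CPM in their wild type counterparts. Its difference of replicate 2 from replicate 1 was -4.08 (SE 0.71, edgeR adjusted p = 3.85e-05), and it too entered the test through replicates 1 and 3 alone. Isl1, which is shared with striatal neurons, was lower by -0.88 (SE 0.11), and the 2 other tested genes, Fezf1 and Pou3f4, were not called for replicate number. Pou3f4 was higher in the null libraries with the block, by 0.36 (SE 0.06, edgeR adjusted p = 0.000185), a call lost without the replicate 2 pair (0.055).

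Of 11 thalamic and prethalamic genes, 6 were tested and 2 were called for replicate number. Gbx2, a homeobox gene of the thalamus that is also used in MGE-derived neurons, was at 16.7, 1.82 and 29.4 CPM in the null and 22.1, 4.95 and 25.7 CPM in the wild type replicates. Its difference of replicate 2 from replicate 1 was -2.50 (SE 0.29, edgeR adjusted p = 5.92e-05). Lhx1os, a noncoding transcript next to Lhx1, was called too, but it entered the test through replicates 1 and 3 alone. It lost its call without null replicate 2 (0.201). With the block, Irx1 was higher in the null libraries by 1.62 (SE 0.46), a call lost without the replicate 1 pair (0.0525) or the replicate 3 pair (0.332).

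Pallial genes outside the set that passed the filter did not move together. Of 12 pallial progenitor genes 6 were tested, and 3 were called for replicate number: Lhx2 and Nr2e1, transcription factors of forebrain progenitors, were higher in replicate 2 than in replicate 1, by 0.49 (SE 0.08) and 0.55 (SE 0.08), and Pax6 was lower by -0.94 (SE 0.33). The calls of Nr2e1 and Pax6 were lost without null replicate 2 (edgeR adjusted p 0.0515 and 0.0554). With the block 0 of the 6 were called between genotypes. Dmrt3 and Wnt3a had 0 counts in every library. Of 15 genes of pallial glutamatergic neurons 10 were tested and 5 were called. Tle4 and Mef2c were lower in replicate 2 than in replicate 1, by -0.98 (SE 0.10) and -0.84 (SE 0.18), while Zbtb18 and Sox5 were higher, by 0.42 (SE 0.07) and 0.27 (SE 0.09), and the call of Sox5 was lost without null replicate 2 (0.114). The fifth, Nfix, lost its call without null replicate 2 (0.12) or null replicate 3 (0.719). Lhx2, Nr2e1, Zbtb18 and Sox5 lay at 73.9 to 293 CPM in every library, and whether pallial cells contributed was not tested. Below the filter, Fezf2 (18, 2 and 6 null and 12, 3 and 3 wild type counts) was lowest by CPM in both replicate 2 libraries. So was Bhlhe22 (7, 5 and 17, and 5, 0 and 10; unfiltered edgeR adjusted p 0.00286 and 0.0357 for replicate number). Slc17a7, Neurod4 and Nhlh1 were not. Fezf2 was called lower than in replicate 1 (-2.93, unfiltered edgeR adjusted p = 0.0027) but not than in replicate 3 (-0.94, 0.665). Bhlhe22 was called lower than in replicate 3 (-2.62, 0.0105) but not than in replicate 1 (-1.75, 0.25). With the block, Lmo4 rose by 0.47 (SE 0.07) and Rnd2 fell by 0.44 (SE 0.08) in the null libraries. Lmo4 lost that call without the replicate 2 pair (edgeR adjusted p = 0.0645) and Rnd2 without the replicate 3 pair (0.0826).

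Among ventral lists, 8 of 14 MGE and subpallial genes were called for replicate number, 4 with lower and 4 with higher estimates in replicate 2 than in both others. Slc32a1, the vesicular GABA transporter gene, and Gad1, a GABA-synthesizing enzyme gene, were lower than in replicate 1 by -0.58 (SE 0.10) and -0.40 (SE 0.08). Olig2, a transcription factor of ventral progenitors, was higher by 0.37 (SE 0.07). Without null replicate 2, only Olig2 of the 8 remained called (edgeR adjusted p = 0.0183), and Slc32a1 (0.0503) and Gad1 (0.161) were among those lost. Without null replicate 3, 5 of the 8 remained called. Between genotypes Dlx1, a homeobox gene of ventral progenitors, was the only gene of any list called without the block, at 0.69 (SE 0.09, edgeR adjusted p = 0.034). With the block, Dlx1, Dlx2 and Gad2 were higher and Lhx6, Gad1 and Slc32a1 lower in the null libraries, and all but Slc32a1 remained called with any 1 pair left out. Of 14 genes of the lateral and caudal eminences 9 were called, 5 with lower and 2 with higher estimates in replicate 2 than in both others, led by Foxp2, a forkhead gene of striatal neurons, at -1.83 (SE 0.15). Without null replicate 2, 4 of the 9 remained called, and Meis2 (edgeR adjusted p = 0.557), Six3 (0.146), Sp8 (0.383), Nr2f2 (0.0862) and Pax6 were not. With the block Foxp1, Meis1, Meis2 and Six3 of this list were higher in the null libraries, by 0.24 to 0.46, and each call was lost without the replicate 2 pair (edgeR adjusted p 0.164 to 0.531). The list medians against replicate 1 were 0.10 for the MGE list and 0.00 for the lateral and caudal list.

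**Figure D5:**
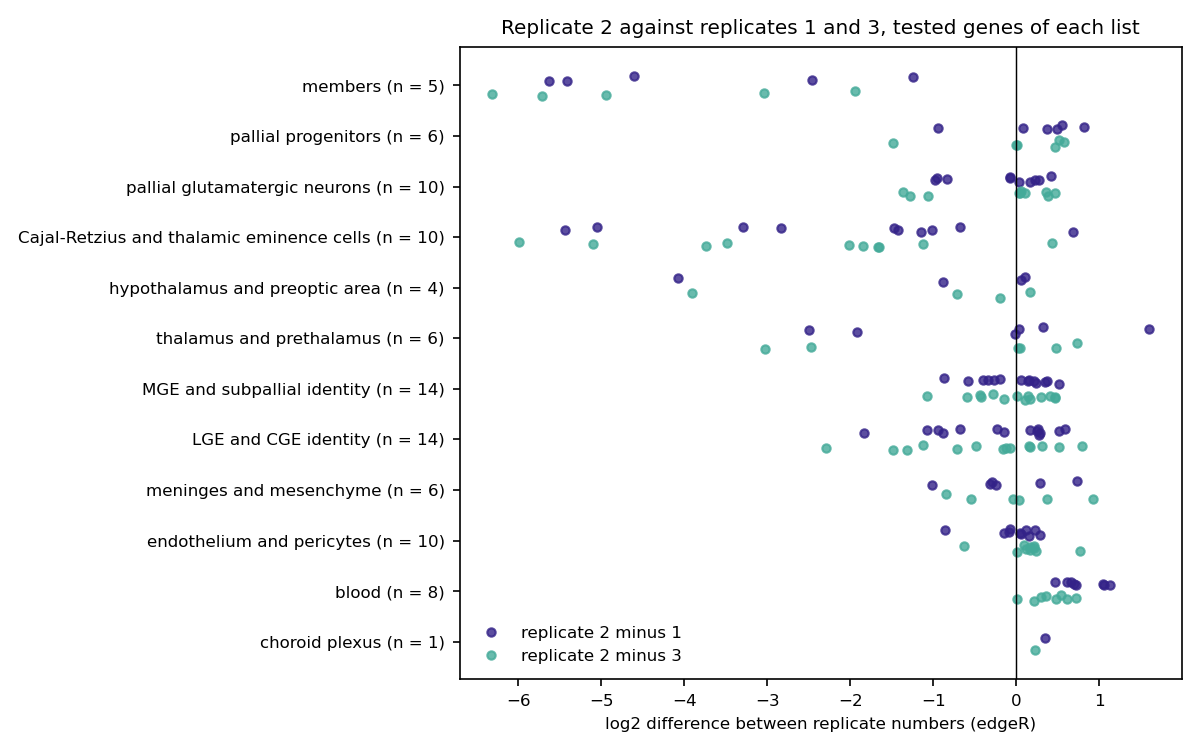
Log2 difference of replicate 2 from replicates 1 and 3 (horizontal axis) for each tested gene of the marker lists, from the edgeR fit with genotype as a term; the number of genes tested is beside each list. The 5 members and 9 of 10 Cajal-Retzius and thalamic eminence genes lie left of 0, blood genes lie right of 0, and the other lists spread over both sides or hold few genes.

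Markers of tissue outside the neural wall were set beside this pattern. Blood genes differed in the other direction. Of 8 genes 6 were called for replicate number, all with higher estimates in replicate 2 than in both others, and in 5 both replicate 2 libraries lay above the other 4, against 15.8% of all tested genes. The 8 summed to 797, 1210 and 872 CPM in null replicates 1, 2 and 3 and to 768, 1180 and 884 CPM in the wild type replicates. Hba-x, an embryonic globin gene, was higher in replicate 2 than in replicate 1 by 1.06 (SE 0.07, edgeR adjusted p = 1.78e-13). Hba-x and Hbb-bh1 were also higher in replicate 3 than in replicate 1, by 0.45 and 0.92 (edgeR adjusted p 0.00119 and 3.38e-05). The other called blood genes were not called in that comparison. Against replicate 3, the replicate 2 differences of Hbb-bh1 (0.21) and Alas2 (0.36) were not called (edgeR adjusted p 0.178 and 0.0984). Without null replicate 2, Alas2 and Slc4a1 of the 6 lost their calls (0.156 and 0.685). Endothelial and pericyte genes summed to 160.0 to 188 CPM in the null and 171 to 195 CPM in the wild type libraries, with 1 of 10 called, and meningeal and mesenchymal genes to 42.5 to 50.1 and 47.2 to 53.1 CPM in the same order, with 1 of 6 tested called. Those calls were Rgs5, lost without null replicate 3 (0.138) or wild type replicate 2 (0.0864), and Col1a1, lost without wild type replicate 2 (0.244). Of 6 choroid plexus genes only Otx2 was tested and was not called, and Folr1 had 0 counts throughout. With the block Hba-x and Hbb-bh1 were higher in the null libraries, by 0.41 (SE 0.06) and 0.33 (SE 0.10), and Pdgfra of the meningeal list was lower by -0.45 (SE 0.12). Hbb-bh1 and Pdgfra lost these calls without the replicate 2 pair (edgeR adjusted p 0.376 and 0.4) or the replicate 3 pair (0.485 and 0.135). The part of blood content in the replicate 2 pattern was not tested.

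Genes outside the set were ranked by the likeness of their profile, as the root mean square difference of centred log2 CPM over the 6 libraries. Samd3 was nearest to Tbr1 (0.645), followed by Lhx5 (0.775) and Chl1 (0.802), a neural cell adhesion gene. Nearest to Slc17a6 were Lhx5 (0.368), Lrrc4c (0.381), which encodes a netrin-G ligand, and Rasgrp1 (0.389), a Ras exchange factor gene. Samd3 had 32, 0 and 97 counts in null replicates 1, 2 and 3 and 28, 0 and 88 in the wild type replicates and was thus at 0 in both replicate 2 libraries, where Tbr1 had 1 and 7 counts. Chl1 was more abundant, at 34.9, 1.64 and 52.2 CPM in the null and 45.2, 3.39 and 51.1 CPM in the wild type replicates.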

How the data were processed

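Per the file headers, each gene of the deposited table has a count and an FPKM value in each library. TopHat, Cufflinks 2.1.1 and the GRCm38.p4 build are named in the submitters' processing notes without their roles; the sources used here do not name the counting program or its strand setting. The authors' deposited FPKM values equalled the count over 1 length per gene and the library total for 21180 of 21180 genes, within a relative tolerance of 0.001. The number of unused sample columns was 0. Members and marker lists were chosen with earlier results of these data known. All members are named; of each list, called genes with the largest differences or the most abundant genes; some are not reported here.

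Counts were tested with edgeR 4.0.16 in R 4.3.3 (quasi-likelihood test, TMM, default filter, robust dispersions), with adjusted p (Benjamini-Hochberg) under 0.05 called. Standard errors are approximate, from the log2 value and F. DESeq2 1.42.0 was an alternative. The genotype fit without the block and the replicate-number test were tried on simulated data. There the genotype fit without the block made more false calls than its threshold allows, so its calls over all genes are to be read with care. The genotype term with the block was not simulated, so its false calls are not known. Same-numbered libraries were taken as pairs, since their deviations from the genotype means correlated by 0.335, 0.729 and 0.535; numbers 1 and 3 were not told apart, as null 3 and wild type 1 correlated by 0.353. The pairing comes from the data, not the labels.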

Additional observations from a re-analysis of the deposited data

How the results depend on the processing

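The count of genes called between genotypes was 22. It was 65 without the low-count filter, 84 by DESeq2 and 597 with the replicate block, and 1193, 126 and 219 with the block and without replicate pair 1, 2 or 3. Alternatives chosen after seeing the data gave 163 (DESeq2 with the block) and 89 (both replicate 2 libraries left out). Leaving out 1 library gave 2 to 34 (2, 11 and 6 without wild type replicates 1, 2 and 3, and 34 without null replicate 2). The count called for replicate number was 3409, and 1542 by DESeq2; leaving out 1 library gave 1056 (without null replicate 2) to 3691, with 2190 without null replicate 3. Fold changes between genotypes with 1 library left out ran from -0.08 to 1.52 for Tbr1, -0.10 to 1.28 for Slc17a6, -0.36 to 0.84 for Lhx9 and -0.05 to 1.19 for Otp, each lowest without null replicate 3, and from 0.41 (without null replicate 3) to 1.78 (without wild type replicate 3) for Eomes. Otp was at -0.03 without wild type replicate 2. With the block and without replicate pair 3, Lhx9 was at -0.14. Slc17a6, replicate 3 minus 1, ran from -0.03 (without null replicate 1) to 0.69. The cause of these shifts was not tested. The replicate block changed the call of 1 marker, Tbr1, and of no other. Replicate 2 stayed below replicates 1 and 3 for the 5 tested markers in the settings run, but not every call remained. Eomes against replicate 1 was uncalled without null replicate 1 (-1.99, edgeR adjusted p = 0.252), without null replicate 2 (-2.19, 0.262) and by DESeq2 (0.152), and Eomes against replicate 3 without null replicate 2 (-2.77, 0.089). Null replicate 1 had the fewest counts and the highest floor, 0.439 CPM. No difference in Neurog2, Neurod2, Neurod6 or Emx1 was called by the unfiltered fits, and counts this low can leave differences undetected.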
